A study of Mus musculus with 6 samples.

Results

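The genes described here are 10 well-known responders to glucocorticoid hormone or to fasting: Fkbp5, Tsc22d3, Zbtb16, Klf9, Cebpd, Sgk1, Ddit4, Pdk4, Mt1 and Mt2. They were picked by name, and they were also selected on measured values, since their levels in mice with and without GSNOR had already been seen in these libraries when they were chosen. Their difference between the genotypes is therefore given as a description, with no p-value. Of the 10 genes 9 had a row among the 22695 rows of the count table and all 9 were abundant enough for the fit, which covered 13694 genes. Cebpd was not analysed here.

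RNA was measured in inguinal white adipose tissue, a subcutaneous fat pad, of mice aged 20 months. The 3 WT libraries carry the genotype label C57BL/6J-WT and the 3 GSNOR KO libraries the label C57BL/6J-GSNOR KO, and no treatment is named for either group. GSNOR, encoded by Adh5, breaks down S-nitrosoglutathione. The labels do not say how the knockout was made, nor whether each library came from its own animal, so the spread between libraries may be technical.

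Glucocorticoids enter cells and bind the glucocorticoid receptor, the product of Nr3c1, which is held by chaperones in the cytoplasm and then moves to the nucleus to bind DNA. In fat, the hormone and the fall of insulin during fasting act together: they favour the release of fatty acids, spare glucose and slow growth signalling. Feeding and insulin act in the opposite direction, partly by keeping FOXO transcription factors out of the nucleus. The genes described here are read out in many tissues as signs of these signals, but each also answers to others, such as zinc, hypoxia or cell stress.

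The libraries held 20277594 to 23961574 counts. Adh5 was at 58.8 to 76.9 CPM (counts scaled to library size by TMM) in the WT libraries and at 3.81 to 5.08 CPM in the GSNOR KO libraries, so the labels and the targeted gene went together. Markers of other cells moved with the groups. The 12 skeletal muscle markers with a row summed to 14423 to 36609 CPM in WT, with WT replicate 1 highest, and to 6197 to 9548 CPM in GSNOR KO. The 12 macrophage markers summed to 293 to 636 CPM in WT, again with WT replicate 1 highest, and to 136 to 178 CPM in GSNOR KO. The 5 lymphocyte markers with a row summed to 33.8 CPM in WT replicate 3 and to 2.74 to 7.61 CPM in the other 5 libraries, and 2 of them lay at or under 3 counts in a library. The 9 white adipocyte markers overlapped in sum, at 11507 to 13783 CPM in WT and 12280 to 14220 CPM in GSNOR KO. Taken singly, 4 of the 9 did not overlap, against 36.7% of all genes, and 1, Lep, was called lower, against 3.14% of all genes. The 6 brown and beige adipocyte markers summed to 2474 to 4003 CPM in WT and 4635 to 5819 CPM in GSNOR KO. Of these 6, 5 had a higher and 1 a lower fitted level in GSNOR KO, and 4 did not overlap. Called higher were 3 of the 6, against 3.90% of all genes. The 8 progenitor and fibroblast markers summed to 376 to 571 CPM in WT and 229 to 286 CPM in GSNOR KO, with 4 called lower, against 3.14% of all genes. Also called lower were 5 of the 12 muscle and 6 of the 12 macrophage markers. None of the markers of these 6 lists was at 0 in every library. In bulk tissue, fewer cells of a type and less RNA per cell cannot be told apart. The 9 mammary epithelium markers were close to absent, with at most 3.28 CPM in sum and 3 of them at 0 throughout.

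Start-site sequences from RefSeq (GRCm38.p6, 250 bases before to 50 bases after an annotated start) were available for 8 of the 9 genes, as 15 windows. Windows of 3 genes are shown because, of the 15, they hold the receptor palindrome or the most metal response elements. The first is 1 of 6 annotated Sgk1 windows, chr10:21993640-21993939 on the plus strand. Its capitals mark a palindrome of the receptor motif AGAACA and its reverse complement TGTTCT, 3 bases apart.

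Sgk1: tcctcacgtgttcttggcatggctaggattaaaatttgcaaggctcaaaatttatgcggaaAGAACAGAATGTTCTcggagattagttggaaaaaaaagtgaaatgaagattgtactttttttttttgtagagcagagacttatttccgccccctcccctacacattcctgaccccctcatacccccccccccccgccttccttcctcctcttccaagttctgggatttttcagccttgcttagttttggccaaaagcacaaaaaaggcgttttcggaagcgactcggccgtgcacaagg

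The palindrome starts 189 bases before that start site, and it occurred in 3 of all 32851 windows (0.00913%). The AGAACA motif alone, on either strand and including those within the palindrome, was found in 4 of the 15 windows, of Sgk1 and Tsc22d3, and in 19.0% of all windows. The other windows shown are those of the metallothionein genes, chr8:94178839-94179138 for Mt1 and chr8:94172368-94172667 for Mt2, both on the plus strand. Their capitals mark the core of the metal response element, TGCACNC or TGCGCNC, on either strand.

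Mt1: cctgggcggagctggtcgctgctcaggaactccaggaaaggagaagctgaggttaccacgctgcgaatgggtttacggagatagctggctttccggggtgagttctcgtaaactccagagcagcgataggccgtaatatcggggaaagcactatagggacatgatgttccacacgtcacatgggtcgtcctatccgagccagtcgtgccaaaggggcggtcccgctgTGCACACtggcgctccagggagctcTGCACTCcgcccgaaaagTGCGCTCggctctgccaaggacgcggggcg

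Mt2: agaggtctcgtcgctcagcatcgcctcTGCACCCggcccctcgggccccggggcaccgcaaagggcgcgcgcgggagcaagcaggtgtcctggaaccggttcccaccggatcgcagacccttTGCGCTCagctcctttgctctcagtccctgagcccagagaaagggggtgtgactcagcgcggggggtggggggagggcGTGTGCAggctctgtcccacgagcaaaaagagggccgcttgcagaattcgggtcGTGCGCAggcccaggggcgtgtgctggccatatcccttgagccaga

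The Mt1 window held 3 such cores and the Mt2 window 4. Of all windows 25.7% held at least 1 and 0.517% held 4 or more. Single cores were also found in a window of Sgk1 and in that of Ddit4. The FOXO motif GTAAACA, searched on both strands, was present in the Klf9 window alone among the 15 and in 3.65% of all windows. A motif match describes the letters and shows no binding.

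Below, single libraries are listed by replicate number, means are given ± SD with n = 3 in each group, and the log2 ratio is the fitted log2 fold change of GSNOR KO over WT. The 9 genes did not move as one set between the genotypes. Sgk1, Ddit4 and Mt1 lay higher in all 3 GSNOR KO libraries than in any WT library, Fkbp5, Tsc22d3 and Klf9 lay lower in all 3, and Zbtb16, Pdk4 and Mt2 overlapped. Groups that do not overlap were thus seen in 6 of the 9 genes, against 36.7% of all genes tested. In the fit across all genes (edgeR quasi-likelihood, adjusted p under 0.05) 0 of the 9 genes were called, 7 had an unadjusted p below 0.05, DESeq2 called 5 and limma voom called 0. Over all genes edgeR called 7.04%, 3.90% higher and 3.14% lower in GSNOR KO. An unadjusted p below 0.05 was found for 28.6% of all genes, DESeq2 called 15.4% of the 14922 genes it tested, and limma voom called 5.37%. The median log2 ratio of the 9 genes was -0.15, and that of all genes tested was -0.04. Since the genes were chosen with this comparison known, nothing is read from these counts.

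**Figure D1:**
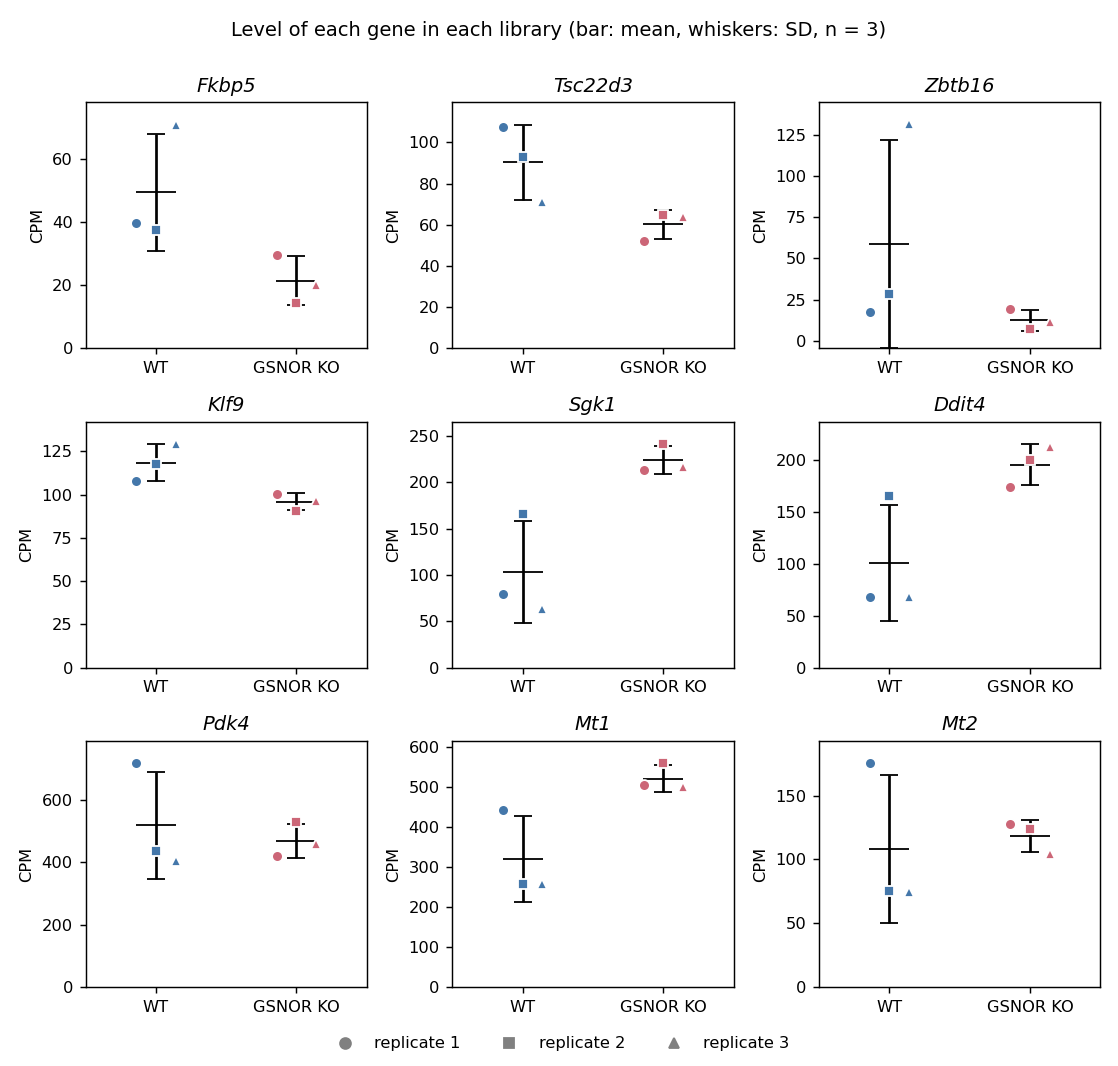
CPM of the 9 genes (y axis, linear) in the 3 WT and 3 GSNOR KO libraries, 1 symbol per library with a different shape for each replicate number, a bar at the mean and whiskers of 1 SD. Sgk1, Ddit4 and Mt1 lie higher and Fkbp5, Tsc22d3 and Klf9 lower in the GSNOR KO libraries, while single WT libraries stand apart in Zbtb16 (131 CPM) and Pdk4 (718 CPM).

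Fkbp5 and Tsc22d3 are feedback genes of the hormone. Fkbp5 (ENSMUSG00000024222, chromosome 17, 28399094 to 28517527, GRCm38) encodes FKBP51, a co-chaperone that lowers the affinity of the receptor for its hormone. It was at 39.8, 37.5 and 70.7 CPM in WT against 29.6, 14.3 and 20.0 CPM in GSNOR KO. All GSNOR KO libraries lay below all WT libraries, and WT replicate 3 stood highest. The means were 49.3 ± 18.6 and 21.3 ± 7.77 CPM, 2.32-fold higher in WT, with a log2 ratio of -1.21 (SE 0.332) that was -0.82 without WT replicate 3. The annotation places 4 other genes within the Fkbp5 locus, 2 on each strand, and strand use in the counting is not given in the sources used here.

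Tsc22d3 (ENSMUSG00000031431, chromosome X, 140539528 to 140600659) encodes GILZ, which carries part of the anti-inflammatory action of glucocorticoids. Its levels were 107, 92.8 and 71.1 CPM in WT against 51.9, 64.9 and 63.6 CPM in GSNOR KO. The groups did not overlap, but the lowest WT library and the highest GSNOR KO library were close. Mean levels were 90.4 ± 18.2 and 60.1 ± 7.15 CPM, a log2 ratio of -0.59 (SE 0.172). WT replicate 1 had the highest level, and it was also the library richest in muscle and macrophage markers. With the muscle marker score as a covariate the log2 ratio was -0.35, and without WT replicate 1 it was -0.42. The score did not overlap between the groups, at 0.198 to 1.48 in WT and -1.07 to -0.406 in GSNOR KO. In each fit with this covariate, here and below, the part of muscle and that of genotype therefore cannot be told apart.

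Zbtb16 and Klf9 are transcription factors that glucocorticoids induce. Zbtb16 (ENSMUSG00000066687, chromosome 9, 48654297 to 48836222) encodes PLZF, which also directs the development of natural killer T cells. It was at 17.2, 28.2 and 131 CPM in WT against 19.2, 6.91 and 11.2 CPM in GSNOR KO. A single library, WT replicate 3, stood far above the other 5, and GSNOR KO replicate 1 lay above WT replicate 1. The means of 58.9 ± 63.0 and 12.5 ± 6.24 CPM therefore rest on that library. The log2 ratio was -2.24 (SE 0.778), and it was -0.83 without WT replicate 3. The summed lymphocyte markers were at 7.61, 4.55 and 33.8 CPM in WT against 4.99, 2.74 and 5.39 CPM in GSNOR KO, and their part in the result was not tested. WT replicate 2 stood second highest for Zbtb16 and second lowest for these markers. The markers were scarce, with 2 of the 5 at or under 3 counts in a library. Fkbp5 and Klf9 were also highest in WT replicate 3 and lowest in GSNOR KO replicate 2. Nothing is read from these orders.

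Klf9 (ENSMUSG00000033863, chromosome 19, 23141226 to 23168134) encodes a Krüppel-like factor that lies directly under the receptor in many cell types. Its level was 108, 118 and 129 CPM in WT against 100.4, 90.5 and 96.5 CPM in GSNOR KO. The groups did not overlap and both were narrow, but the difference was small. The means were 118 ± 10.6 and 95.8 ± 4.97 CPM, a log2 ratio of -0.31 (SE 0.114), and it stayed between -0.34 and -0.20 when any 1 library was left out.

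Sgk1 and Ddit4 stand at the meeting point of hormone and growth signalling, and they went the other way. Sgk1 (ENSMUSG00000019970, chromosome 10, 21882184 to 21999903), whose window is printed above, encodes a kinase related to AKT that regulates ion transport and FOXO factors. It was at 79.7, 166 and 63.4 CPM in WT against 214, 241 and 216 CPM in GSNOR KO. The GSNOR KO libraries were alike, and WT replicate 2 came closest to them. Mean levels were 103 ± 54.9 and 224 ± 15.2 CPM, 2.18-fold higher in GSNOR KO. The log2 ratio was 1.12 (SE 0.337), 1.65 without WT replicate 2 and 0.58 with the muscle marker score as a covariate.

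Ddit4 (ENSMUSG00000020108, chromosome 10, 59949669 to 59951834) encodes REDD1, which restrains the growth kinase complex mTORC1 and also answers to hypoxia. Its levels were 68.3, 166 and 68.4 CPM in WT against 174, 201 and 213 CPM in GSNOR KO. As for Sgk1, WT replicate 2 stood above the other WT libraries and close to the GSNOR KO libraries. The means were 101 ± 56.1 and 196 ± 19.7 CPM, 1.95-fold higher in GSNOR KO. The log2 ratio was 0.96 (SE 0.347), 1.52 without WT replicate 2 and 0.27 with the muscle marker score as a covariate. For Sgk1 and Ddit4 alike, that score cannot be told apart from the genotype.

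Pdk4 is the fasting gene of fuel choice. Pdk4 (ENSMUSG00000019577, chromosome 6, 5483351 to 5496309) encodes a kinase that switches off pyruvate dehydrogenase and so spares glucose while fat is burned. It was at 718, 435 and 406 CPM in WT against 421, 529 and 459 CPM in GSNOR KO. WT replicate 1 stood highest and the other 5 libraries overlapped. With means of 519.8 ± 173 and 469 ± 54.9 CPM the log2 ratio was -0.15 (SE 0.231). Its sign turned without WT replicate 1 (0.19) and with the muscle marker score as a covariate (0.44). Pdk4 is also abundant in skeletal muscle, whose markers were highest in WT replicate 1, and their part in this level was not tested.

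Mt1 and Mt2 encode small proteins that bind zinc and copper and are induced by metals, glucocorticoids and stress. They lie side by side on chromosome 8, Mt2 at 94172664 to 94173568 and Mt1 at 94179082 to 94180327, with 5513 bases between them. Mt1 (ENSMUSG00000031765) was at 444, 259 and 259 CPM in WT against 506, 559 and 499.6 CPM in GSNOR KO. All GSNOR KO libraries lay above all WT libraries, with WT replicate 1 nearest. The means were 320.3 ± 107 and 522 ± 32.9 CPM, 1.63-fold higher in GSNOR KO, with a log2 ratio of 0.70 (SE 0.224) that was 1.04 without WT replicate 1.

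Mt2 (ENSMUSG00000031762) was at 175, 75.6 and 74.2 CPM in WT against 127, 124 and 104 CPM in GSNOR KO. WT replicate 1 stood above every GSNOR KO library and the other WT libraries below them, so the groups overlapped. The means were 108 ± 57.9 and 118 ± 12.5 CPM, a log2 ratio of 0.13 (SE 0.333). That value was 0.69 without WT replicate 1, -0.07 without WT replicate 2 and 1.27 with the muscle marker score as a covariate, under which Mt1 was at 1.35. Both neighbours were highest among the WT libraries in replicate 1, while only Mt1 separated the groups. There were 2.53, 3.42 and 3.49 Mt1 counts for each Mt2 count in WT, against 3.97, 4.53 and 4.80 in GSNOR KO. The ratio was higher in all 3 GSNOR KO libraries, and an antisense gene model overlaps Mt2.

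**Figure D2:**
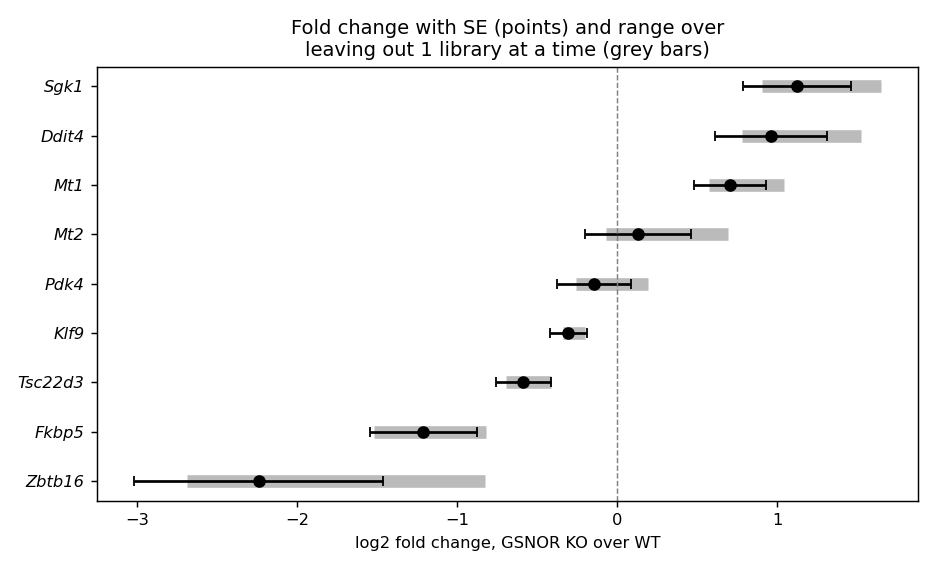
Log2 ratio of GSNOR KO over WT (x axis) for each of the 9 genes (y axis), with points for the value from all 6 libraries, whiskers of 1 SE and grey bars from the lowest to the highest value when 1 library is left out. Mt2 and Pdk4 cross 0 (lowest and highest -0.07 and 0.69 for Mt2, -0.26 and 0.19 for Pdk4), and the bar of Zbtb16 reaches from -2.69 to -0.83.

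The WT libraries differed more among themselves in these genes than the GSNOR KO libraries did. The coefficient of variation was larger in WT for all 9 genes, as it was for 70.9% of all genes tested. Its median was 37.6% in WT and 10.6% in GSNOR KO, against 17.6% and 9.74% over all genes. The difference was smallest for Fkbp5, at 37.6% in WT and 36.5% in GSNOR KO, and wide for Sgk1, at 53.4% and 6.79%. The genes divided by which WT library stood highest. WT replicate 3 was highest for Fkbp5, Zbtb16 and Klf9, WT replicate 2 for Sgk1 and Ddit4, and WT replicate 1 for Tsc22d3, Pdk4, Mt1 and Mt2. Within GSNOR KO, Fkbp5, Zbtb16 and Klf9 shared the order replicate 1, replicate 3, replicate 2 from high to low. Tsc22d3, Sgk1 and Pdk4 had the reverse order, and Ddit4, Mt1 and Mt2 had other orders. Nothing is read from these orders, since the genes were chosen with their values known. Over all genes tested, WT replicate 1 was the highest WT library for 41.7%, replicate 2 for 28.4% and replicate 3 for 29.9%.

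**Figure D3:**
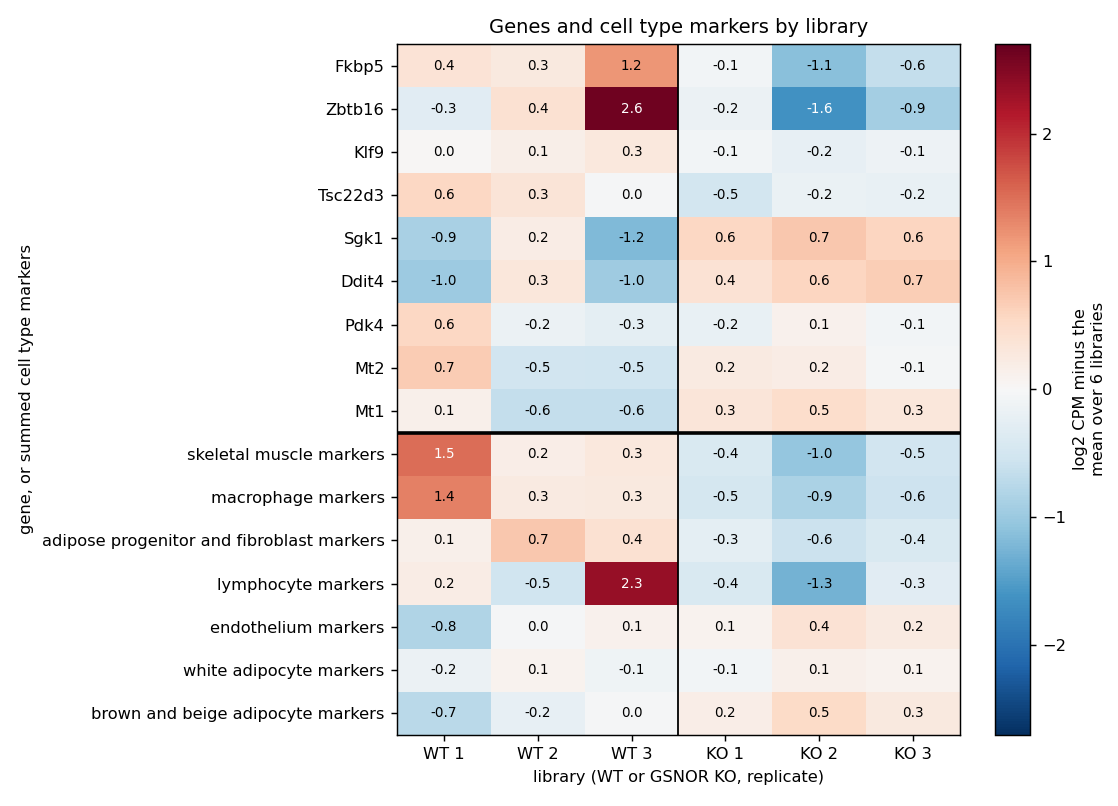
Heat map of the 9 genes and of 7 summed cell type marker lists (rows) in the 6 libraries (columns), coloured and labelled by log2 CPM minus the mean of the row over the libraries. WT replicate 3 stands out in Zbtb16 (131 CPM) and the lymphocyte markers (33.8 CPM), and WT replicate 1 in Pdk4 (718 CPM), Mt2 (175 CPM), muscle markers (36609 CPM) and macrophage markers (636 CPM).

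On the authors' FPKM scale, which divides by transcript length and so allows levels to be set across genes, the metallothioneins were the most abundant of the 9 genes in both groups. In WT, mean levels were 1454 ± 622 FPKM for Mt1, 665 ± 416 for Mt2 and 149 ± 61.1 for Pdk4. Ddit4 (47.6 ± 21.3 FPKM), Sgk1 (42.3 ± 19.2 FPKM) and Tsc22d3 (41.8 FPKM, from 32.6 to 54.0) followed and did not differ beyond their spread. Klf9 stood at 18.5 ± 1.68, Fkbp5 at 12.4 ± 4.47 and Zbtb16 at 6.36 ± 6.67 FPKM. Among neighbours in this order, Mt2 and Pdk4, Pdk4 and Ddit4, and Tsc22d3 and Klf9 did not overlap between libraries. In GSNOR KO the order was the same but for Sgk1 (96.1 ± 4.28 FPKM), which came before Ddit4 (86.6 ± 0.909 FPKM) and well before Tsc22d3 (27.6 ± 2.41 FPKM). Zbtb16 stayed last, at 1.32 ± 0.802 FPKM.

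The other genes of the pathway were taken from 11 lists with 201 genes, of which 193 were tested. Of these 21 rose and 7 fell, or 14.5%, against 7.04% of all genes. The lists were written with earlier results of these data known. Nothing is therefore read from this share, or from those of single lists below. The 12 genes that fasting is known to lower in fat held 9 of the 28 calls. With the muscle marker score as a covariate 3 were called (Fasn, Fos and Hsd11b1), against 0.73% of all genes. The count was 55 with DESeq2, against 15.4% of all genes. It was 65 without WT replicate 1, against 20.5% of all genes, and 2 without WT replicate 2 (Lep and Fos), against 0.0935%. It was 0 when any 1 of the GSNOR KO libraries was left out. Without GSNOR KO replicates 1, 2 and 3, only 5, 3 and 3 of all genes were called. Adjusted p-values in what follows are from edgeR over all 13694 genes.

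No gene of receptor and hormone handling was called by edgeR among 22 tested, while 4 of the 22 (against 28.6% of all genes) had an unadjusted p below 0.05. DESeq2 called 3 of the 22 (against 15.4%), and 6 were called by edgeR without WT replicate 1 (against 20.5%). Nr3c1, the receptor gene, was at 56.4, 68.4 and 63.4 CPM in WT against 51.6, 54.3 and 49.5 CPM in GSNOR KO. The groups did not overlap, but the difference was small and not called (log2 ratio -0.28, SE 0.110, adjusted p = 0.152; called without WT replicate 1, at 0.0289). Hsd11b1, the enzyme that regenerates active hormone inside fat cells, was at 87.9, 43.2 and 37.6 CPM in WT against 112, 102 and 104 CPM in GSNOR KO. Its GSNOR KO libraries all lay above WT, yet it was not called (log2 ratio 0.91, SE 0.305, adjusted p = 0.104). It was called without WT replicate 1, at a log2 ratio of 1.42 and an adjusted p of 0.000143, and also with the muscle marker score as a covariate (1.99, 0.0255) and by DESeq2 (0.93, 0.0258). Its adjusted p over the 16 alternatives ran from 0.000143 to 0.254. Nr3c2, the mineralocorticoid receptor gene, had a log2 ratio of -0.03 (SE 0.148, adjusted p = 0.910). The corepressor gene Nrip1 (log2 ratio -0.58, adjusted p = 0.0637) and the co-chaperone gene Bag1 (0.36, adjusted p = 0.0952) had the smallest p of the list.

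Of 31 other genes induced by glucocorticoids 2 rose, 1 fell (9.68% called, against 7.04% of all genes) and 28 did not pass. The list median was 0.02. Orm2, an acute-phase protein gene, rose from 35.3 ± 12.0 to 89.6 ± 10.9 CPM (log2 ratio 1.34, SE 0.245, adjusted p = 0.0298). Mfsd2a, a carrier of lysophosphatidylcholine that fasting also induces, rose from 0.471 ± 0.281 to 2.89 ± 1.48 CPM (log2 ratio 2.61, SE 0.588, adjusted p = 0.0446). It was scarce, and its log2 ratio was 0.57 with the muscle marker score as a covariate. Per1, a clock gene with a receptor element, overlapped between the groups at 91.7 ± 23.9 and 104 ± 9.90 CPM (log2 ratio 0.19, adjusted p = 0.556). Angptl4, a lipase inhibitor raised by fasting, overlapped too, at 228 ± 64.6 and 256 ± 11.4 CPM (log2 ratio 0.17, adjusted p = 0.618). Without WT replicate 1 Angptl4 was called, at 0.45 and an adjusted p of 0.0115.

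Among 35 fasting regulators and targets of FOXO and PPAR alpha 4 rose, 1 fell and 30 did not pass, with a median of -0.20. That is 14.3% called, against 7.04% of all genes. Klf15, a transcription factor that fasting and glucocorticoids induce, was the gene that fell. It was at 32.0, 28.6 and 29.0 CPM in WT against 18.3, 15.2 and 17.1 CPM in GSNOR KO (log2 ratio -0.82, SE 0.118, adjusted p = 0.0189). Klb, the co-receptor for FGF21, rose from 6.62 ± 1.37 to 14.5 ± 2.35 CPM (adjusted p = 0.0275), Ucp3, a mitochondrial carrier, from 81.0 ± 11.2 to 154 ± 30.9 CPM (adjusted p = 0.0321), and Plin5, a lipid droplet coat, from 220.0 ± 7.33 to 304 ± 1.72 CPM (adjusted p = 0.0423, and 0.0935 with library totals only). Pnpla2 also rose. The brown and beige adipocyte markers given above did not overlap between the groups in sum, and their sum was higher in GSNOR KO too. Of the 6 markers 1 had a lower fitted level, and their part in these rises was not tested. Foxo1 overlapped at 37.8 ± 10.4 and 33.3 ± 1.68 CPM (log2 ratio -0.18, adjusted p = 0.574). Ppara lay higher in all GSNOR KO libraries, at 139 ± 44.2 and 207 ± 10.9 CPM, and was not called (log2 ratio 0.57, adjusted p = 0.146). Its log2 ratio was 0.86 without WT replicate 3, where it was called (adjusted p = 0.0480), and -0.061 with the muscle marker score as a covariate, and its adjusted p over the 16 alternatives ran from 0.0480 to 0.896.

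**Figure D4:**
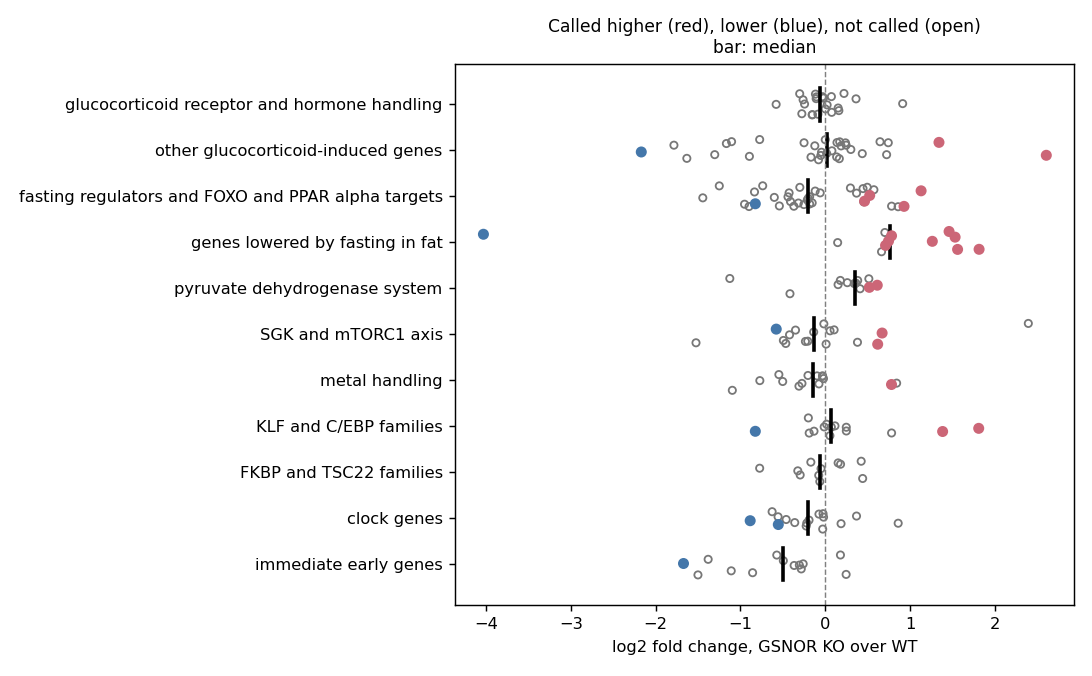
Log2 ratio of GSNOR KO over WT (x axis) for the tested genes of each pathway list (y axis), 1 circle per gene, filled red where called higher, filled blue where called lower and open where not called, with a bar at the list median. The genes lowered by fasting have their median at 0.76 with Lep far to the left at -4.03, and the median of the immediate early genes is -0.49.

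The 12 genes that fasting lowers in fat, mostly of fatty acid synthesis, held 8 that rose, 1 that fell and 3 that did not pass. Their median was 0.76, and 75% were called, against 7.04% of all genes. Fasn, the fatty acid synthase, was at 1830 to 3559 CPM in WT and at 8052 to 10044 CPM in GSNOR KO (log2 ratio 1.82, adjusted p = 0.0189). Acaca had a log2 ratio of 1.56 and Thrsp one of 1.46 (adjusted p = 0.0181 for each). Lep, the leptin gene, fell within the same list, from 87.6, 310.4 and 132 CPM in WT to 11.9, 9.06 and 11.4 CPM in GSNOR KO (log2 ratio -4.03, or -3.34 without WT replicate 2, adjusted p = 0.0181). Of these 9 calls 1 was made with the muscle marker score as a covariate and 1 without WT replicate 2. In sum, the brown and beige adipocyte markers also lay higher in GSNOR KO, and their part in these rises was not tested.

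In the pyruvate dehydrogenase system, the target of PDK4, 2 of 12 genes rose and 0 fell (16.7% called, against 7.04% of all genes). Pdk1, another kinase of the complex, rose from 52.7 ± 5.38 to 75.6 ± 2.06 CPM (log2 ratio 0.52, adjusted p = 0.0392, and 0.0717 with library totals only). Mpc2, a subunit of the mitochondrial pyruvate carrier, rose from a range of 252 to 296 CPM in WT to one of 384 to 453 CPM in GSNOR KO (log2 ratio 0.61, adjusted p = 0.0357). Pdk2 was not called (log2 ratio 0.34, adjusted p = 0.126; 0.47 and 0.00909 without WT replicate 1), nor was the scarce Pdk3 (-0.42, adjusted p = 0.368). On the FPKM scale Pdk4 made up 57.5 to 66.4% of the summed kinase transcripts in WT and 53.2 to 57.1% in GSNOR KO.

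Around SGK1 and mTORC1 2 of 17 genes rose and 1 fell (17.6% called, against 7.04% of all genes). Mtor, the kinase of the complex that REDD1 restrains, rose from 67.6 ± 3.55 to 104 ± 5.06 CPM (log2 ratio 0.62, SE 0.102, adjusted p = 0.0235), and Sesn2, a stress-induced inhibitor of that complex, from a mean of 11.6 CPM (10.8 to 12.5) to 18.5 CPM (highest 21.9; adjusted p = 0.0434). Pdpk1, the kinase that activates SGK1, fell from 25.5 ± 2.03 to 17.1 ± 1.67 CPM (log2 ratio -0.58, adjusted p = 0.0401, and 0.0554 with library totals only). Of 14 metal handling genes 1 rose and 0 fell, or 7.14%, close to the 7.04% of all genes. The copper chaperone gene Atox1 rose from 120.4 ± 4.22 to 207 ± 22.1 CPM (log2 ratio 0.78, SE 0.119, adjusted p = 0.0212). Mtf1, whose product binds the metal response elements, overlapped at 12.2 ± 0.925 and 10.1 ± 1.13 CPM (log2 ratio -0.27, adjusted p = 0.245).

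In the families of Klf9 and Cebpd 2 of 14 genes rose and 1, Klf15, fell (21.4% called, against 7.04% of all genes). Klf2 and Klf4, factors of endothelium and other cells, rose from 130.5 ± 60.4 to 458 ± 163 CPM (log2 ratio 1.81, adjusted p = 0.0428) and from 50.3 ± 15.8 to 131 ± 32.8 CPM (1.39, adjusted p = 0.0333). Klf2 was not called when any 1 library was left out, and Klf4 was called only without WT replicate 1 among these. With the muscle marker score as a covariate neither was called, at log2 ratios of 1.28 for Klf2 and 0.60 for Klf4. Endothelium markers summed to 1092 to 2056 CPM in WT, lowest in WT replicate 1 and highest in WT replicate 3, and to 2033 to 2508 CPM in GSNOR KO. Klf4 was lowest in WT replicate 1 (36.6 CPM) and Klf2 in WT replicate 3 (75.1 CPM), and the part of endothelium in these rises was not tested. In the families of Fkbp5 and Tsc22d3 0 of 11 genes were called by edgeR, 3 had an unadjusted p below 0.05, against 28.6% of all genes, and 1 was called by DESeq2, against 15.4%. Without WT replicate 1 edgeR called 4 of the 11, against 20.5%. Fkbp2 had a log2 ratio of 0.42 (adjusted p = 0.0585, and called at 0.0487 with scaling without mitochondrial genes, at 0.00873 by DESeq2 and at 0.0167 without WT replicate 1) and Fkbp3 one of -0.77 (adjusted p = 0.125). Fkbp3 was highest in WT replicate 1, and its log2 ratio was -0.33 without that library and turned to 0.26 with the muscle marker score as a covariate.

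Clock genes were examined because Klf9 and Per1 follow the daily hormone rhythm, and the hour of collection is not given in the sources used here. Of 16 clock genes 0 rose and 2 fell, or 12.5%, against 7.04% of all genes. The repressor gene Bhlhe40 fell from 57.6 ± 4.33 to 39.3 ± 2.23 CPM (adjusted p = 0.0321). Bhlhe41, also a repressor gene, fell from 39.7 ± 4.65 to 21.5 ± 5.29 CPM (adjusted p = 0.0419, and 0.0527 with library totals only). Of 13 immediate early genes, which react within minutes to handling and stress, 0 rose and 1 fell, or 7.69%, close to the 7.04% of all genes. Fos was at 32.7, 24.6 and 32.4 CPM in WT against 11.3, 8.44 and 8.36 CPM in GSNOR KO (log2 ratio -1.68, SE 0.177, adjusted p = 0.0178).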

How the data were processed

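Poly-A RNA libraries of 3 WT and 3 GSNOR KO samples were analysed. The deposited table gives whole-number counts with no normalization and FPKM scaled to transcript length by the authors, per the file headers. The builds named in the submitters' processing notes are GRCm38 and mm10. Aligner, counter and strand setting: not given in the sources used here.

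Genes passing filterByExpr were fitted with edgeR 4.0.16 in R 4.3.3: TMM scaling, robust quasi-likelihood F test, two-sided, Benjamini-Hochberg adjustment over all genes tested, called under 0.05. The SE is the size of the log2 ratio over the root of F. Group values are TMM-scaled CPM; 3 counts correspond to 0.131 to 0.138 CPM. The script was tested on simulated data with a spread set below that of the real libraries, so that check does not cover the real spread. An exact permutation test of 3 against 3 libraries cannot go below p = 0.1. FPKM was used for levels across genes and for alternatives with pseudocounts of 0.1 and 1. The muscle marker score is the mean log2 CPM (prior count 2) of 12 markers, centred on its mean over the 6 libraries. It did not overlap between WT and GSNOR KO, so fits with it cannot tell muscle and genotype apart. Gene positions are from GENCODE M21.

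The 10 genes and all lists were chosen with earlier results of these data known. The lists have 273 genes, of which 264 matched by symbol, 2 by identifier and 7 not. Named were, per list, up to 4 called genes with the smallest p (with no call, the 2 smallest), plus Nr3c1, Nr3c2, Hsd11b1, Per1, Foxo1, Ppara, Klf15, Angptl4, Pdk1, Pdk2, Pdk3, Mtf1 and Adh5; Pnpla2 was named after its value was seen. A called gene of the lists is not reported here. DESeq2 1.42.0 and limma 3.58.1 served as alternatives, and no library was a duplicate of another (highest Pearson correlation 0.989).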

Additional observations from a re-analysis of the deposited data

How the results depend on the processing

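The 964 calls over all genes became 2300 with DESeq2 and 100 with the muscle marker score as a covariate, and 3 to 2844 with 1 library left out. Of the 9 genes 0 were called. DESeq2 called 5 (Sgk1, Ddit4, Mt1, Fkbp5 and Tsc22d3), against 15.4% of all genes. With 1 library left out, 0 to 3 of the 9 were called. These were Mt1, Mt2 and Klf9 without WT replicate 1, against 20.5% of all genes. Without WT replicate 2 they were Sgk1 and Ddit4, against 0.0935% of all genes. Without WT replicate 3 it was Tsc22d3, where 915 of all genes were called. Since the 9 genes were chosen with this comparison known, nothing is read from their counts. The 28 pathway calls became 55 with DESeq2, 3 with the muscle score and 0 to 65 with 1 library left out. The cause was not tested. Leaving out a library also leaves fewer samples, and the muscle score did not overlap between the genotypes. RLE factors, library totals, scaling without mitochondrial genes, other filters, limma voom and no robust dispersion kept each of these 3 counts within 1.5 times, but single named calls were lost: Pdk1, Plin5, Pdpk1 and Bhlhe41 with library totals, Plin5 (0.0535) and Klf2 (0.0610) with no filter, and Mfsd2a (0.0651) and Sesn2 (0.0540) with limma voom, each value an adjusted p. With the replicate block Bhlhe40 (0.0513), Mpc2 (0.0633), Pdk1 (0.0581), Pdpk1 (0.0645) and Plin5 (0.0910) were not called. With library totals only, the split over all genes was 314 higher and 406 lower, against 534 and 430, and with the median shifted by -0.05 on the log2 scale.

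Both groups carry sample numbers 1 to 3, and nothing says that equal numbers belong together. Deviations from the group means correlated at 0.158, 0.132 and -0.056 within the same numbers, so the samples were not treated as paired. With the replicate block, 884 of 13694 genes were called, 376 higher and 508 lower. Among them were 27 pathway genes and 2 of the 9 (Sgk1 higher, Fkbp5 lower), and nothing is read from these 2 counts.

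Fold changes of the 9 genes kept their sign under every alternative, except Pdk4 (0.19 without WT replicate 1, 0.44 with the muscle score) and Mt2 (-0.07 and -0.05 without WT replicates 2 and 3). With the muscle score Zbtb16 was at -3.34, Fkbp5 at -1.21 and Klf9 at -0.41. Of the pathway genes named in the text, those not called with all 6 libraries included some whose sign turned. It turned with the muscle score for Fkbp3 (0.26), Per1 (-0.098) and Ppara (-0.061). With 1 library left out it turned for Foxo1, which ranged from -0.32 to 0.084 and was positive without WT replicate 3. It also turned for Nr3c2, which ranged from -0.10 to 0.043 and was positive without WT replicate 1, WT replicate 2 or GSNOR KO replicate 3.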
